A study of Mus musculus with 4 samples.

Results

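The 10 genes described here, Sptlc1, Sptlc2, Cers2, Cers5, Cers6, Degs1, Ugcg, Sgms1, Asah1 and Sphk1, code for enzymes that make, convert and break down ceramide, the lipid at the centre of sphingolipid metabolism. They were taken by symbol from the 19938 genes that had a probe of exactly 1 gene on the array, and all 10 were found, each with 1 probe. Their expression was measured in macrophages from the peritoneal cavity of wild-type C57BL/6 mice aged 8 to 12 weeks. These macrophages were drawn there by 1 mL of 4% thioglycolate, collected 3 days later and freed of non-adherent cells 3 h after plating. The cells were then kept for 6 h with 1 fatty acid at 500 µM, which was palmitic acid, a saturated chain of 16 carbons, oleic acid, a chain of 18 carbons holding 1 double bond, or linoleic acid, as long as oleic acid and holding 2 double bonds. Bovine serum albumin (BSA) carried each of them, and the control is BSA alone in the labels but a vehicle of ethanol and KOH in the protocol. Each group is a pool of RNA from 3 samples, read on 1 Affymetrix array, so that there are 4 arrays, no replicates and no test or interval for any difference between groups. Whether the pooled samples came from separate mice is not given in the sources used here.

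Cells make ceramide from serine and palmitoyl-CoA, the activated form of palmitic acid. Serine palmitoyltransferase carries out the first and committed step, ceramide synthases add a fatty acyl chain, and a desaturase turns dihydroceramide into ceramide. Ceramide then passes to glucosylceramide and the other glycosphingolipids, to sphingomyelin, or through ceramidases to sphingosine, which sphingosine kinases turn into the signalling lipid sphingosine 1-phosphate. In macrophages this pathway is known as a destination of excess saturated fat.

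Every difference below is one between the log2 values of 2 arrays, and a gene is counted as higher or lower when it lay at least 1.5-fold apart (0.58 in log2), or past a smaller line of 0.32 in log2 where that is stated. Counts are set beside the share of all 11174 kept genes past the same fold in the same direction. The 10 genes and the other lists below were chosen with earlier results of these data known, so the counts do not test them. Kept genes are those that reached log2 7.09, the median of all values, on at least 1 array, and all 10 genes did. Levels are not compared between genes, since each probe has its own brightness. In RNA from whole cultures, fewer cells of a type and less RNA per cell cannot be told apart.

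With palmitic acid 2 of the 10 genes, Ugcg and Sphk1, were at least 1.5-fold higher than in the control, beside 2.17% of all kept genes, and 0 were lower, beside 1.41%. At the line of 0.32, Sptlc2 joined them, which made 3 of 10 higher (8.65% of kept genes), and 1 was lower, Cers5 (5.58%). The median difference of the 10 genes was -0.0091, beside 0.00059 for all kept genes, so that the larger differences were those of 4 single enzymes and not of the list as a whole. The other 6 genes lay within 0.1 of the control. With oleic acid 0 of 10 were 1.5-fold higher (0.376% of kept genes) and 0 lower (0.34%), and the same counts held with linoleic acid (0.0358% and 0.0358%). At the line of 0.32 the counts were again 0 and 0, with oleic acid beside 2.35% of kept genes higher and 1.52% lower, and with linoleic acid beside 1.2% higher and 0.528% lower. The plot of the 10 genes by array shows these levels.

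**Figure D1:**
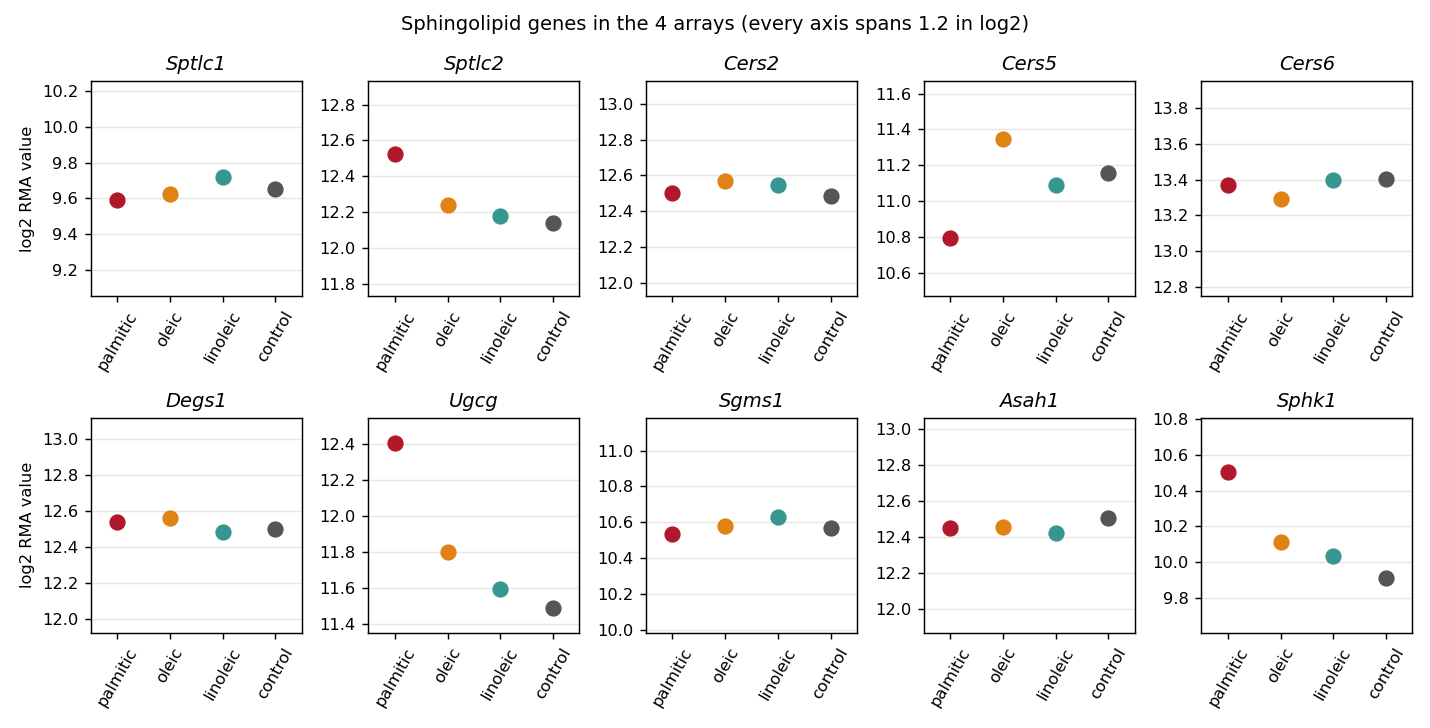
Levels of the 10 sphingolipid genes, as log2 values after robust multi-array averaging (RMA), on the vertical axes in the palmitic acid, oleic acid, linoleic acid and control arrays. Each point is 1 array of pooled RNA, and every axis spans the same length in log2. Ugcg reached 12.41 with palmitic acid, against 11.49 in the control, while Cers2, Degs1 and Asah1 stayed within a range of 0.08 over the 4 arrays.

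Of the subunits of serine palmitoyltransferase, Sptlc2 and Sptlc1 showed unlike differences. Sptlc2, which codes for a catalytic subunit, had log2 values of 12.52 with palmitic, 12.24 with oleic and 12.18 with linoleic acid, against 12.14 in the control. It was highest with palmitic acid, by 0.39 or 1.31-fold over the control, and 6.13% of kept genes were at least as high in that comparison. Sptlc1, which codes for the subunit that partners it, had 9.59 with palmitic, 9.62 with oleic and 9.72 with linoleic acid, against 9.65 in the control. Its difference with palmitic acid was -0.06, and its whole range over the arrays was 0.13, narrower than the median range of kept genes, 0.22.

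The 3 ceramide synthase genes code for enzymes that prefer different acyl chains, with Cers5 and Cers6 known for palmitoyl chains and Cers2 for very long ones. Cers5 had log2 values of 10.79 with palmitic, 11.35 with oleic and 11.09 with linoleic acid, against 11.16 in the control. It was lowest with palmitic acid, at -0.36 against the control, where 4.30% of kept genes were at least as low, and highest with oleic acid, at 0.19. Cers6 had 13.37 with palmitic, 13.29 with oleic and 13.40 with linoleic acid, against 13.41 in the control, so that it did not show the low value of Cers5 with palmitic acid. Cers6 was the brightest of the 10 probes, at a level where differences were small in general. The 193 kept genes within 0.5 of its mean level had a robust SD of 0.086 in the palmitic acid comparison, beside 0.21 for the 1260 genes around Cers5. Cers2 had 12.50 with palmitic, 12.57 with oleic and 12.54 with linoleic acid, against 12.49 in the control. Degs1, the dihydroceramide desaturase gene, had 12.54 with palmitic, 12.56 with oleic and 12.48 with linoleic acid, against 12.50 in the control. The ranges of Cers2 (0.08) and Degs1 (0.08) were among the narrowest of kept genes, 92.8% and 93.2% of which had ranges at least as wide.

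Of the genes that carry ceramide into larger sphingolipids, Ugcg had the widest range of the 10. It codes for glucosylceramide synthase, the enzyme that puts the first sugar on ceramide. Its log2 values were 12.41 with palmitic, 11.80 with oleic and 11.60 with linoleic acid, against 11.49 in the control. The palmitic acid array was 1.90-fold above the control, a difference of 0.92, which was the 58th highest of the 11174 kept genes. Among the 751 kept genes of similar brightness, 0.53% were at least as high. The oleic acid array was also above the control, by 0.31 or 1.24-fold, where 2.61% of kept genes were at least as high, and the linoleic acid array lay at 0.11. Sgms1, which codes for a sphingomyelin synthase of the Golgi, had 10.53 with palmitic, 10.58 with oleic and 10.63 with linoleic acid, against 10.57 in the control. Sgms1 stayed within a range of 0.10, while Ugcg spanned 0.92, and neither stands for its whole branch. Sgms2, another sphingomyelin synthase gene from the wider list below, had a range of 0.25, highest with palmitic acid and lowest in the control.

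Of the genes that turn ceramide towards sphingosine 1-phosphate, Sphk1 was higher with palmitic acid and Asah1 was not. Sphk1, a sphingosine kinase gene, had log2 values of 10.50 with palmitic, 10.11 with oleic and 10.03 with linoleic acid, against 9.91 in the control. Its difference of 0.59 with palmitic acid, or 1.51-fold, lay just past the 1.5-fold line and was 0.54 after a repeated quantile normalisation, which is below it. In that comparison 2.09% of kept genes were at least as high, and 3.23% of the 1856 kept genes of similar brightness. The differences with oleic acid (0.20) and linoleic acid (0.12) were smaller. Asah1, the gene of the lysosomal acid ceramidase, had 12.45 with palmitic, 12.46 with oleic and 12.42 with linoleic acid, against 12.51 in the control, a range of 0.08.

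Sptlc2, Ugcg and Sphk1 had the same order of levels, with palmitic acid highest, then oleic acid, then linoleic acid, and the control lowest. This order was noticed after their values were seen. It held for 3 of the 10 genes and for 5.1% of all kept genes, and it kept the same 3 genes under both other scalings, which were subtracting each array's median and normalising by quantiles again. The step between linoleic acid and the control was small in each, 0.04 for Sptlc2, 0.11 for Ugcg and 0.12 for Sphk1, and centring brought that of Sptlc2 to 0.0045. With 1 array per group there is no spread against which neighbours in this order could be told apart.

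The promoters of Ugcg, Sphk1, Sptlc2 and Cers5, the 4 genes with the widest ranges, are shown for the letters before their starts. They are the 250 bases before an annotated start, credited to RefSeq on build GRCm38.p6. The Ugcg window is chr4:59189300-59189549 on the plus strand, that of Sphk1 chr11:116531587-116531836 on the plus strand, that of Sptlc2 chr12:87388356-87388605 on the minus strand and that of Cers5 chr15:99772516-99772765 on the minus strand. Sphk1 has 5 starts in the table, of which 2 have overlapping windows that hold the same AP-1 match, and 1 of these was chosen after the search. Each line runs 5′ to 3′, and capitals mark any match to the motifs given after the sequences, on either strand.
Ugcg: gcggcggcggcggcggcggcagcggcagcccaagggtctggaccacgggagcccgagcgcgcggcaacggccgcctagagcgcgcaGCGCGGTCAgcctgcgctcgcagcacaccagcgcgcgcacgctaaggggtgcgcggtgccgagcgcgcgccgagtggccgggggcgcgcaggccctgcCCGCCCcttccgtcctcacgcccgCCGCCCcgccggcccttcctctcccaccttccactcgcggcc
Sphk1: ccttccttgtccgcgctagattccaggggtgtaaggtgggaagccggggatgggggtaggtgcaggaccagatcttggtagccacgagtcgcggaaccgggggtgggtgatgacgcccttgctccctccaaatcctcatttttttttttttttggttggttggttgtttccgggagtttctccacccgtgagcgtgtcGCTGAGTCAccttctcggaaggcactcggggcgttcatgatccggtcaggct
Sptlc2: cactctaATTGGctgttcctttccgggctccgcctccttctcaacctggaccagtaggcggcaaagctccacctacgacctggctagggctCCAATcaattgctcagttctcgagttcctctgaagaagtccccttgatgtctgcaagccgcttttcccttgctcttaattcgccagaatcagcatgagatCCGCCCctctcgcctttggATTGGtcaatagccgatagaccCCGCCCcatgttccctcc
Cers5: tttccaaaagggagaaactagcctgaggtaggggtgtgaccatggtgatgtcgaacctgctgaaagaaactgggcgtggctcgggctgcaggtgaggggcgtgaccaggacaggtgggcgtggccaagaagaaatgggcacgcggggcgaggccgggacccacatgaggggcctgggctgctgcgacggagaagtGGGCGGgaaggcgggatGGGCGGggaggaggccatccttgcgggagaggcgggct

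The motifs searched on both strands were the AP-1 site TGANTCA, the E-box CACGTG, the C/EBP-ATF element TGATGNAA, the CCAAT box CCAAT, the antioxidant response element core TGACNNNGC, the GC box GGGCGG, the ER stress response element (CCAAT and CCACG with 9 bases between them) and the sterol response element. Windows were found for 9 of the 10 genes, 17 in all, and not for Asah1. Ugcg held 2 GC boxes and 1 antioxidant core, and its window was 80.4% G and C, beside a median of 52.4% over all 32851 windows of this length. The shown Sphk1 window held an AP-1 match and an antioxidant core match that overlap in the same letters, from 44 to 52 bases before the start. The Sptlc2 window held 3 CCAAT boxes and 2 GC boxes, and the Cers5 window 2 GC boxes. The GC box is in 32.7% of all windows, the CCAAT box in 33.8%, the antioxidant core in 10.2% and the AP-1 site in 6.75%. Of the 17 windows, some of which overlap, 7 held the GC box, 7 the CCAAT box, 3 the antioxidant core and 3 the AP-1 site. Genes of narrower range had such matches too, with the GC box in Cers2, Sgms1 and Sptlc1. The CCAAT box was in Cers2, Cers6, Sgms1 and Sptlc1, and the AP-1 site in Sgms1. Windows of Sgms1 and Cers2 reached 76% and 74.8% G and C. The E-box, in 6.02% of all windows, was found in 5 of the 17 windows, which are of Cers2, Cers6, Degs1 and Sphk1. The Sphk1 windows that hold it overlap and share the same match. No window of these genes held the C/EBP-ATF element (3.45% of all windows), the ER stress response element (0.113%) or the sterol response element (0.0731%). A match is a run of letters and not a measured site of binding.

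The 3 fatty acids were compared directly, in 3 pairs, at the same concentration and time. Palmitic acid, which has 2 carbons fewer and 1 double bond fewer than oleic acid, gave a higher value of Ugcg by 0.61, or 1.53-fold. That made 1 of the 10 genes at least 1.5-fold higher (1.82% of kept genes) and 0 lower (1.66%). At the line of 0.32, 2 were higher, Ugcg and Sphk1 (0.39), beside 9.37% of kept genes, and 1 was lower, Cers5, beside 7.45%. Cers5 had a difference of -0.55, and 1.91% of kept genes were at least as low. Sptlc2 lay at 0.28.

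Palmitic acid against linoleic acid again had 1 of 10 genes at least 1.5-fold higher, Ugcg by 0.81 or 1.76-fold (1.58% of kept genes), and 0 lower (2.01%). At the line of 0.32, Sphk1 (0.47) and Sptlc2 (0.35) were higher too, which made 3 of 10, beside 5.88% of kept genes, and 0 were lower (7.26%), with Cers5 at -0.30. This pair uses neither the control nor the oleic acid array, but shares the palmitic acid array with the others. Linoleic acid differs from oleic acid by 1 more double bond in a chain of equal length. In that pair 0 of 10 genes were 1.5-fold higher (0.707% of kept genes) or lower (0.34%), and 0 reached 0.32 either way (4% and 2.52%). The largest differences among the 10 were those of Cers5 (-0.26) and Ugcg (-0.20), both lower with linoleic acid. With single arrays, no interval can be given for the genes that lay close together, and their closeness does not show that the fatty acids act alike. The plot of the 6 comparisons sets the 10 genes beside the spread of all kept genes.

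**Figure D2:**
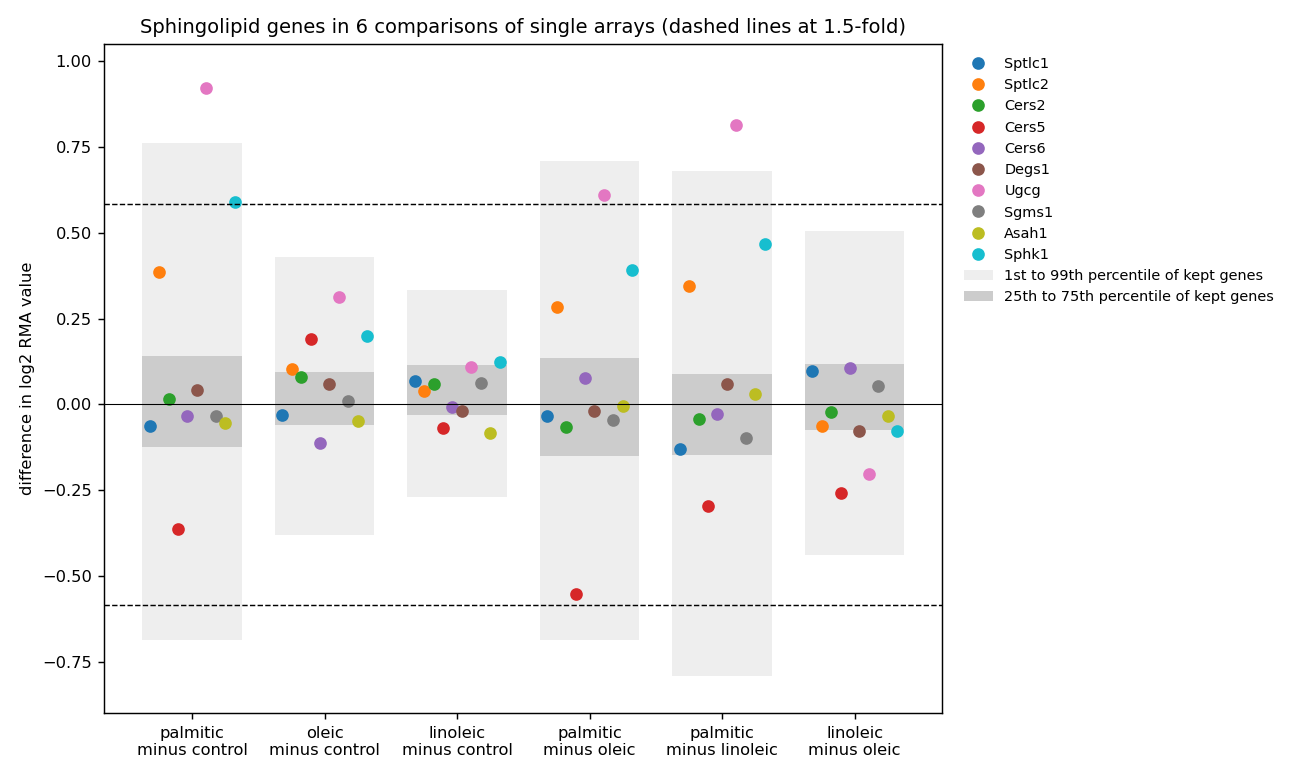
Differences in log2 value of the 10 sphingolipid genes (coloured points) in the 6 comparisons of single arrays, over the range of all kept genes (light bars, 1st to 99th percentile; dark bars, 25th to 75th percentile). Dashed lines mark 1.5-fold. Ugcg lies above the light bar for palmitic acid against the control (0.92) and against linoleic acid (0.81).

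A wider list of 69 other genes of the pathway, in 11 roles, was read the same way. Of these, 66 were measured, 3 are not analysed here, and 54 were kept. With palmitic acid 1 of the 54 was at least 1.5-fold higher than in the control and 3 were lower, beside 2.17% and 1.41% of kept genes. With oleic acid 0 were higher and 1 was lower, beside 0.376% and 0.34%, and with linoleic acid 0 and 0, beside 0.0358% and 0.0358%. The list medians were -0.03 with palmitic, 0.05 with oleic and 0.0068 with linoleic acid, beside 0.00059, 0.01 and 0.04 for all kept genes.

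Between the fatty acids, 0 of the 54 genes were at least 1.5-fold higher with palmitic than with oleic acid and 2 were lower, Smpdl3b and S1pr3, with Plpp1 next at -0.54. The shares of all kept genes in that pair were 1.82% higher and 1.66% lower. Against linoleic acid 0 were higher with palmitic acid and 4 were lower, which were Elovl6 (-1.08), Smpdl3b (-1.08), S1pr3 (-0.84) and Plpp1 (-0.74), beside 1.58% and 2.01% of kept genes. With linoleic against oleic acid 1 was higher, Elovl6, and 0 were lower, beside 0.707% and 0.34%. The highest in the pair of palmitic and linoleic acid were Acer3 (0.54), Plpp3 (0.48) and Kdsr (0.36). The lowest in the pair of linoleic and oleic acid were Sptssa (-0.32), S1pr1 (-0.30) and Smpd2 (-0.27). Sptssa and S1pr1 lay below the filter with linoleic acid. In that pair Hsd17b12 was higher, at 0.27.

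In the steps that lead to ceramide, Kdsr, the reductase gene that follows serine palmitoyltransferase, was higher with palmitic acid by 0.35, and lay at 0.23 with oleic acid and -0.02 with linoleic acid. Sptssa, a small activating subunit of serine palmitoyltransferase, had 7.01 with palmitic, 7.35 with oleic and 7.04 with linoleic acid, against 7.19 in the control. These values lie near the filter of 7.09, and Sptssa was kept through the oleic acid and control arrays. The ORMDL genes, which code for inhibitors of that enzyme, stayed near the control with palmitic acid, with Ormdl1 at -0.05, Ormdl2 at -0.16 and Ormdl3 at 0.02. Phgdh, which codes for the enzyme that starts serine synthesis, was below the control in all 3 comparisons, at -0.35 with palmitic, -0.22 with oleic and -0.20 with linoleic acid, and these share the control array.

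Elovl6, which codes for the elongase that lengthens palmitoyl chains, had the largest downward difference of the list with palmitic acid. Its log2 values were 7.74 with palmitic, 7.99 with oleic and 8.82 with linoleic acid, against 8.75 in the control. The differences from the control were -1.01 with palmitic acid and -0.76 with oleic acid, and between the fatty acids linoleic acid was higher than oleic acid by 0.83. Hsd17b12, a reductase gene of the same elongation cycle, lay at -0.25 with oleic acid and at 0.01 with palmitic acid, a value whose sign flips with the scaling.

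The wider list holds 5 kept genes of sphingomyelin synthesis, ceramide transfer and phosphorylation beside Sgms1, which lay at -0.04 with palmitic acid. With palmitic acid these 5 lay above the control, where 50.1% of all kept genes did, with a median of 0.25, and 4 of 5 lay above it after a repeated quantile normalisation. The difference passed 0.32 in 2 of the 5, beside 8.65% of kept genes. Cert1, whose protein carries ceramide from the endoplasmic reticulum to the Golgi, had 10.43 with palmitic, 10.07 with oleic and 10.29 with linoleic acid, against 10.01 in the control. Samd8, which codes for a synthase of ceramide phosphoethanolamine, was higher with palmitic acid by 0.38 over the control and over oleic acid. Acer3, an alkaline ceramidase gene, was higher with palmitic acid by 0.39 over the control and by 0.54 over linoleic acid. Asah2, the neutral ceramidase gene, lay at -0.02 with palmitic acid and was highest with linoleic acid, by 0.30 over the control and 0.28 over oleic acid. In the pair of palmitic and oleic acid the highest of the list were Samd8 (0.38), Acer3 (0.37) and Cert1 (0.36).

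Of the 5 kept genes of later glycosphingolipid synthesis, 1 lay above the control with palmitic acid, where 50.1% of all kept genes did, and the median was -0.23. Those below it included the ganglioside synthesis genes B4galnt1 (-0.31) and St3gal5 (-0.23) and the lactosylceramide synthase gene B4galt6 (-0.29). B4galt5, which codes for the other lactosylceramide synthase, lay at 0.02. All 5 lay within 0.32 of the control.

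Smpdl3b lay below the control with palmitic acid and above it with oleic acid. Listed with the sphingomyelinases, it codes for a membrane phosphodiesterase related to acid sphingomyelinase that is known to dampen Toll-like receptor signalling in macrophages. Its log2 values were 7.85 with palmitic, 9.08 with oleic and 8.93 with linoleic acid, against 8.72 in the control. The palmitic acid array was below the control, at -0.87, and below oleic acid, at -1.22 or 2.34-fold, while oleic acid was above the control, at 0.36. Smpd1, the acid sphingomyelinase gene, lay at -0.11 with palmitic acid, and Smpd2, a neutral sphingomyelinase gene, at 0.26 with oleic acid and -0.01 with linoleic acid.

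Among genes that act on sphingosine 1-phosphate, those of 2 surface lipid phosphate phosphatases lay on opposite sides of the control with palmitic acid. Plpp3 had 12.59 with palmitic, 12.25 with oleic and 12.11 with linoleic acid, against 11.96 in the control, the same order as Ugcg and Sphk1. Sgms2 and Gla of the wider list also had this order, as did 5.1% of all kept genes. The difference of Plpp3 with palmitic acid was 0.63, or 1.55-fold. Plpp1 had 8.60 with palmitic, 9.15 with oleic and 9.34 with linoleic acid, against 9.30 in the control, a difference of -0.69 with palmitic acid. Both enzymes also act on other lipid phosphates. Of the genes that remove sphingosine 1-phosphate inside the cell, the lyase gene Sgpl1 lay at 0.21 with palmitic acid and the phosphatase gene Sgpp1 at -0.28. Sphk2, the other sphingosine kinase gene, lay at 0.13 with palmitic, 0.12 with oleic and 0.16 with linoleic acid.

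Of the 5 receptors for sphingosine 1-phosphate, 4 lay below the control with palmitic acid, with a median of -0.12, and all 5 lay below oleic acid. Of all kept genes, 50.1% lay above the control with palmitic acid and 45.9% above oleic acid. With palmitic acid S1pr1 (7.02) and S1pr5 (6.94) lay below the filter of 7.09. Both were kept through arrays where they were higher, so that the counts of receptors rest in part on the filter. S1pr3 had 7.35 with palmitic, 8.00 with oleic and 8.19 with linoleic acid, against 7.89 in the control, so that palmitic acid was lowest. The palmitic acid difference was -0.66 against oleic acid and -0.84 against linoleic acid. S1pr1 was lower with linoleic than with oleic acid, at -0.30, and its values of 6.96 to 7.25 lie near the filter. The plot of the wider pathway by role shows that points past 1.5-fold are single genes of different roles.

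**Figure D3:**
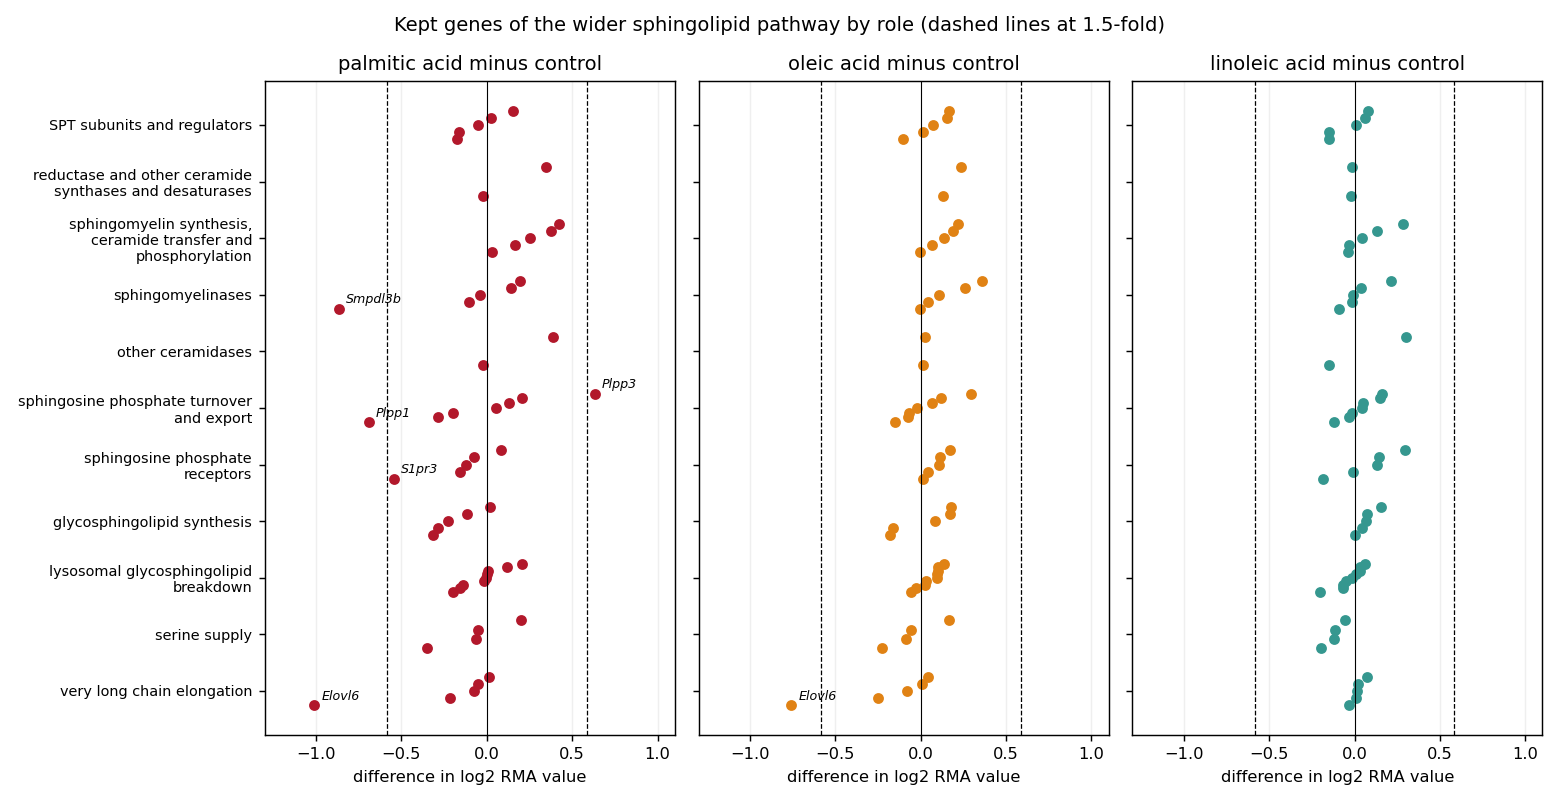
Differences in log2 value from the control for the 54 kept genes of the wider sphingolipid pathway, with roles down the page and 1 panel per fatty acid. Each point is a gene, dashed lines mark 1.5-fold, and points at least 0.5 from 0 are named. Plpp3 is to the right of the lines with palmitic acid (0.63), and Smpdl3b (-0.87), Plpp1 (-0.69) and Elovl6 (-1.01) are to the left.

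All 10 macrophage markers were kept, with log2 values from 10.03 to 13.92. Their median difference was -0.02 with palmitic acid against the control. Since each probe has its own brightness, such levels do not give the shares of cell types. Single markers differed more, with Mertk at 0.51 and Fcgr1 at -0.66 with palmitic acid, and Fcgr1 at 0.65 with oleic acid. Of the 10 mesothelial and fibroblast markers 8 were kept, and all 8 were below the control with palmitic acid. Their median was -0.25, and Pdgfrb lay at -1.29. Of those not kept, Upk3b lay at -0.07 and Krt19 at 0.03. Msln was kept through its oleic acid value only, 7.10, and had 6.94 with palmitic acid. The 10 markers had log2 values from 6.50 to 10.82, and the brightest, Dcn, lay within the range of the macrophage markers. Their summed linear level was 4227 with palmitic, 5136 with oleic and 5979 with linoleic acid, against 5624 in the control. The median difference of the 8 kept ones was -0.04 with oleic acid and 0.05 with linoleic acid. S1pr3, Plpp1 and Cers5 were also lower with palmitic acid than in the control, though Cers5 was highest with oleic acid, and the part of these markers in those differences was not tested. Markers of B cells, T cells, neutrophils, eosinophils and mast cells were mostly too low to be kept, with 1 kept gene in each list, and 2 of 4 dendritic cell markers were kept. Array medians were 7.08 with palmitic, 7.07 with oleic and 7.13 with linoleic acid, against 7.09 in the control.

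The genes with profiles most like those of Ugcg and Sphk1 were found by the smallest Euclidean distance over the 4 arrays, after each gene's own mean was subtracted, among the other 11173 kept genes. Nearest to Ugcg were the zinc exporter gene Slc30a1 (distance 0.030), the sialyltransferase gene St6galnac4 (0.056), Gadd45g (0.063), the urokinase gene Plau (0.074) and the anion channel subunit gene Lrrc8d (0.075). Slc30a1 had 9.55 with palmitic, 8.98 with oleic and 8.74 with linoleic acid, against 8.65 in the control, steps close to those of Ugcg. Nearest to Sphk1 were Hp1bp3 (0.0076), the tubulin gene Tubb6 (0.039), Plcl2 (0.039), the mitochondrial ubiquitin ligase gene Mul1 (0.045) and the mitochondrial carrier gene Slc25a13 (0.052). Over 4 arrays many genes can share a shape, and these are the nearest by this measure only.

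**Figure D4:**
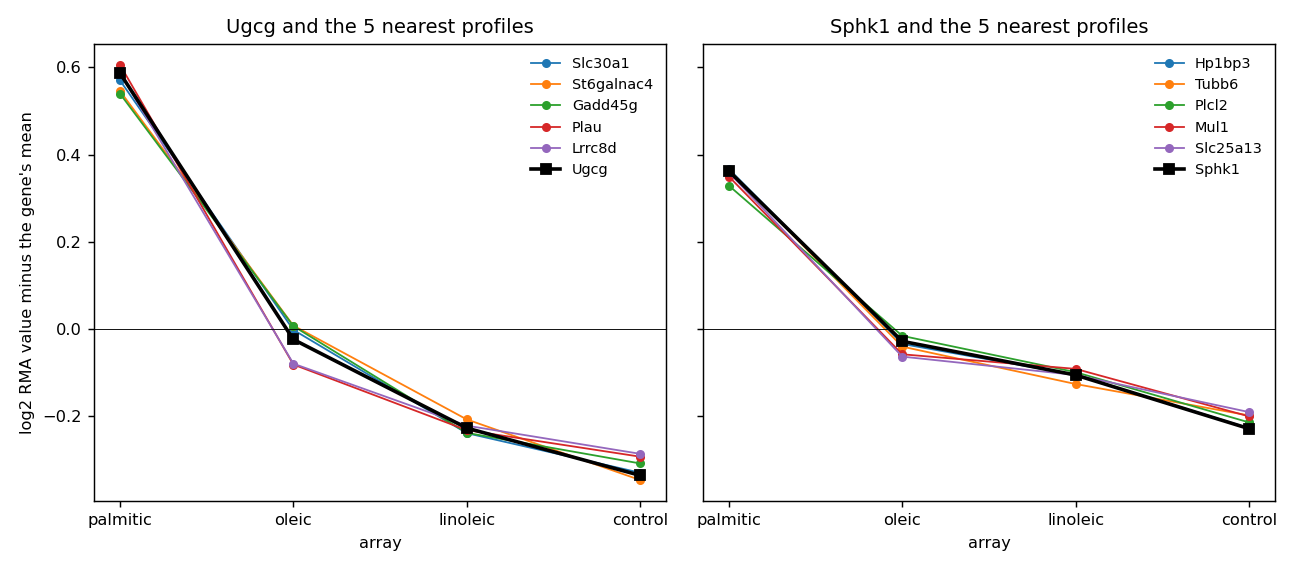
Log2 values minus each gene's own mean (vertical axes) in the palmitic acid, oleic acid, linoleic acid and control arrays, for Ugcg and its 5 nearest profiles and for Sphk1 and its 5 nearest. Black squares are Ugcg and Sphk1, coloured points are the other genes, and lines join the arrays only to guide the eye. In both panels palmitic acid is highest and the control lowest.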

How the data were processed

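The log2 values were deposited by the authors as 1 table of 35556 probes and 4 arrays, made with RMA (background correction, quantile normalisation between arrays and probe summary), per the submitters' processing notes. The log2 scale was read from the values, which run from 2.28 to 14.44, while a genome build, the version and the level of summary are not given here by any label. Probes were named from the platform annotation, which lists 23410 of them, 21789 with exactly 1 gene. Those of a gene were averaged. A RefSeq table of GRCm38.p6, matched by Entrez ID, changed 0 symbols. Transcript variants of a gene are not told apart by its probe.

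With 1 array per group no test was run. Differences and counts were computed with Python 3.11.15, numpy 2.4.6 and pandas 2.3.3. The counting code was tested on simulated data with the spread of linoleic acid minus control. That spread is narrower than that of palmitic acid minus control, so the simulation does not bear on the calls made there. The 10 genes, the wider list and the markers were chosen with earlier results of these data known. All 10 genes are named. Of the wider list, those at least 1.5-fold apart are named, as are the 3 highest and 3 lowest differences of every comparison, and others were chosen after their values were seen. The comparisons with the control share its array. Alternatives were 2 other scalings, 3 filters, the brightest probe and a floor. Precision is limited by the number of arrays.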

Additional observations from a re-analysis of the deposited data

Results flagged for a closer look

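Smpdl3b lay on opposite sides of the control with palmitic and oleic acid, at -0.87 and 0.36, each at least 0.32 from it. It was the only gene among the 10 sphingolipid genes and the 54 kept genes of the wider list for which any pair of fatty acids did so at that size. How many of all kept genes did so was not counted, so that how unusual this is cannot be said. Each value of Smpdl3b rests on 1 array, both use the same control array, and the difference was not tested as an interaction. The direct difference of palmitic minus oleic acid, which does not use the control, was -1.22. The kept mesothelial and fibroblast markers were also lower with palmitic acid, with medians of -0.25 against the control and -0.22 against oleic acid. Their part in the Smpdl3b value was not tested.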

How the results depend on the processing

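No paired analysis was possible because each group has 1 array, and for the same reason no replicate could be left out. All 60 differences of the 10 genes moved by less than the robust spread of kept genes in their comparison under the 7 alternatives, by at most 0.055 when array medians were subtracted and 0.059 when quantiles were normalised again. The repeated quantile normalisation left 1 of the 10 genes at least 1.5-fold higher with palmitic acid than in the control, since Sphk1 had 0.54. With the filter at the 75th percentile, which tests fewer dim genes, the wider list had 0 genes at least 1.5-fold lower with oleic acid than in the control, 1 lower with palmitic than with oleic acid, 2 lower with palmitic than with linoleic acid and 0 higher with linoleic than with oleic acid. The other counts stayed within 1.5 times and the medians within that spread. Cers2 and Cers6 between palmitic and linoleic acid, Cers6 between linoleic acid and the control, and Sgms1 between linoleic and oleic acid had differences near 0 whose sign flipped with the scaling.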

Other observations

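Of 9 kept genes of glycosphingolipid breakdown, most of them lysosomal, 0 were 0.32 apart in any of the 3 comparisons with the control. The shares of all kept genes past that line were 8.65% higher and 5.58% lower with palmitic acid, 2.35% and 1.52% with oleic acid, and 1.2% and 0.528% with linoleic acid, so that 0 of 9 is near this background. The 9 genes had medians of -0.0036 with palmitic, 0.10 with oleic and -0.01 with linoleic acid. All 9 were lower with linoleic than with oleic acid, with a median of -0.07 and a range from -0.16 to -0.02, and this held under both other scalings. Of the 11174 kept genes, 6178 were above 0 in that comparison with the deposited values, 4453 when array medians were subtracted and 4672 when quantiles were normalised again. Gla, the alpha-galactosidase gene, had 12.22 with palmitic, 12.05 with oleic and 12.02 with linoleic acid, against 12.02 in the control, while the galactosylceramidase gene Galc was lower with linoleic acid than in the control, at -0.20.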
